A study of Mus musculus with 13 samples.

Results

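The response of the mouse brain to altitude was examined by setting RNA sequencing libraries from animals kept at 8000 m for 24 h (Mod, n = 5) against libraries from animals in the normal condition (Con, n = 4). These are 9 of the 13 libraries of the series, and the comparison covers the 13905 genes, of 37636 listed, whose mean over the 13 columns was at least 1 FPKM. FPKM are fragments scaled by gene length and by the fragments mapped in a library. Both groups were male Balb/c mice of 6 to 8 weeks, and neither was given 6-OHG. The other 4 libraries, from mice exposed in the same way and given that compound, entered the filter and the estimate of the spread and were compared with nothing. The labels call the tissue brain and name no region. They do not say how the altitude was produced, nor what pressure, temperature or food the mice had. They also do not say that the replicates of a group are separate animals, so the p-values may measure only technical spread. In bulk tissue, fewer cells of a type and less RNA per cell cannot be told apart.

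At altitude the partial pressure of oxygen falls, and cells answer through the hypoxia-inducible factors (HIF). Oxygen-dependent hydroxylases mark the HIF alpha subunits for destruction, so these proteins build up when oxygen is short and switch on genes for glycolysis, vessel growth and the removal of mitochondria. Brain endothelium is both a target of these signals and the site of the blood-brain barrier, and severe hypoxia also raises glucocorticoid hormones and lowers the body temperature of small rodents.

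The libraries carried the markers of brain tissue. All 16 neuronal markers listed passed the filter, and they summed to 1702 to 1764 FPKM in Con and to 1550.2 to 1624 FPKM in Mod. Con replicate 4 stood apart, with a mean correlation of 0.969 with the other Con libraries across genes, against 0.978 to 0.982 for the other 3. Its cortical and hippocampal markers averaged 0.59 below the Con mean on the log2 scale, and its growth hormone gene Gh was at 19.2 FPKM where the other Con libraries listed it at 0. Gh, which a pituitary gland makes, lay between 0.0658 and 1.11 FPKM in Mod. Striatal markers averaged 1.07 and 1.36 below the Con mean in Mod replicates 1 and 5. In Mod replicate 3 liver transcripts stood at the Con level, 0.14 below its mean, while the other 4 Mod libraries lay 1.83 to 2.13 below. All results were therefore refitted without each library in turn, and without Con replicate 4 and Mod replicate 3 together, an alternative chosen after the data were seen.

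**Figure D1:**
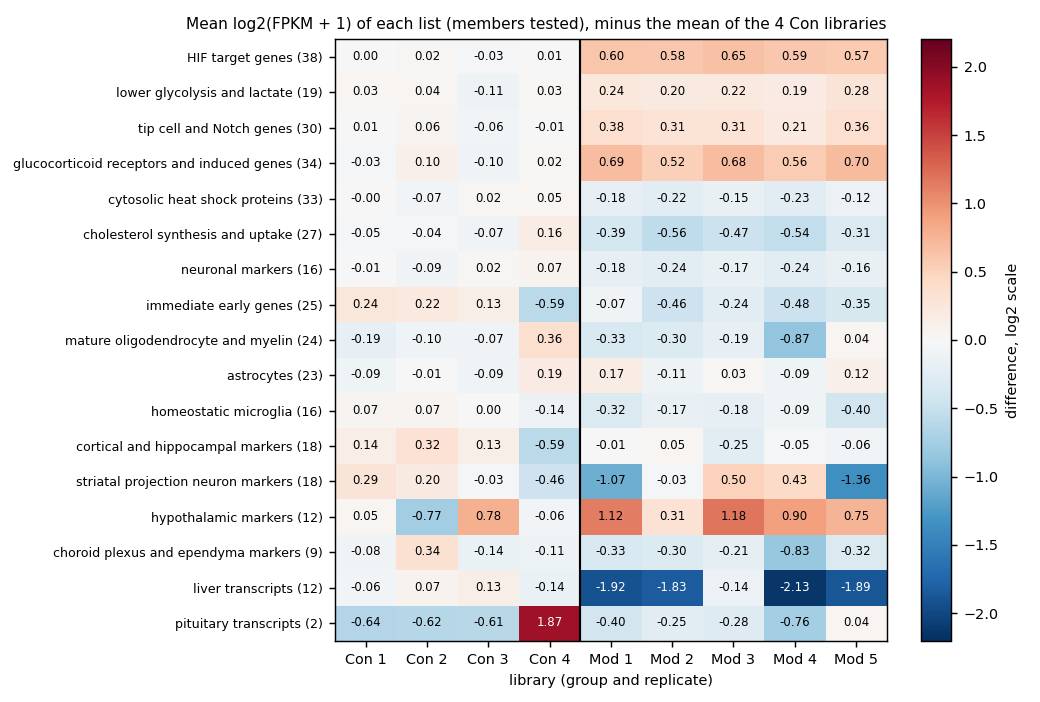
Mean log2(FPKM + 1) over the tested members of 17 gene lists (rows) in each of the 9 libraries (columns), as the difference from the mean of the 4 Con libraries. HIF targets lay 0.57 to 0.65 higher in the 5 Mod libraries, while liver transcripts were low in 4 of these 5 and striatal markers varied within both groups.

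A change is the Mod mean minus the Con mean of log2(FPKM + 1), on which scale genes with low values show less than their fold. Levels are FPKM, as mean ± SD with n = 4 for Con and n = 5 for Mod. A gene was called, and is said to have risen or fallen, at an adjusted p under 0.05 in limma. Of the 13905 genes, 1940 rose (14.0%) and 1364 fell (9.81%), 23.8% in all, and the median change over all genes tested was 0.01. The shares of 14.0% and 9.81% are the background for every list count given below. A change of at least 1 was found for 91 of the genes that rose and 29 of those that fell. With the columns rescaled to equal FPKM sums the split turned, to 1095 higher and 1603 lower. Equal sums without mitochondrial genome genes gave 1645 higher and 1606 lower. Median-of-ratios scaling gave 1802 and 1660, and quantile normalization 1808 and 1557, so the excess of rises depended on the scaling. No called gene named here changed direction under the other scalings. The calls of Avp, Cited2, Cul2, Inpp5d, Kcnj10, Nefm, Rictor and Sgk3 ended without Con replicate 4 and Mod replicate 3 together, and those of Avp, Cited2, Gapdh, Rictor and Sgk3 with equal FPKM sums. Of 623 long noncoding RNA genes tested, 167 rose and 25 fell. Genes that fell had a longer summed exon length, which merges all annotated exons of a gene and is not the length of a transcript. Its median was 5198 bases, against 3773 bases for genes that rose and 4102.5 bases for all tested. Among genes with 8 kb or more of summed exons 9.39% rose and 15.04% fell, and among those with 1 to 2 kb 16.54% rose and 6.94% fell. When the dependence on exon length and GC was removed library by library, 1902 genes were higher and 1581 lower.

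Of 38 HIF target genes tested 28 rose and 1 fell, with a median change of 0.50, and in 27 of the 38 the lowest Mod value exceeded the highest Con value. Over all genes tested, groups did not overlap in 22.4%, with Mod higher in 13.5% and lower in 8.87%. Vegfa, the main growth factor of vessels, stood at 19.96, 23.5, 19.4 and 19.0 FPKM in the Con libraries and at 70.5, 65.9, 71.4, 61.1 and 66.2 FPKM in the Mod libraries (log2 change 1.67, SE 0.08, adjusted p = 3.71e-08 by limma). Bnip3, which marks mitochondria for autophagy, read 43.2, 41.8, 42.4 and 39.6 FPKM in Con and 108, 106, 104, 105 and 109.7 FPKM in Mod (log2 change 1.33, SE 0.07, adjusted p = 6.61e-08). The lowest Mod value was over 2 times the highest Con value for both genes, and the Mod libraries lay close together. Slc16a3, which encodes a lactate exporter, was low in Con, at 0.477, 0.489, 0.627 and 0.491 FPKM, and stood at 1.79, 1.9, 2.62, 2.12 and 1.99 FPKM in Mod (log2 change 1.02, SE 0.08, adjusted p = 7.33e-06). Tfrc, the transferrin receptor that takes up iron, rose from 17.0 ± 0.923 to 29.1 ± 2.21 FPKM. Higd1a and Fam162a, both of mitochondria, rose by 0.67 and 0.83. Car12, a carbonic anhydrase at the cell surface, was the member that fell, and its call was lost without any 1 of Con replicates 1, 2 and 3 or Mod replicates 1, 2 and 5. Leaving out any 1 library left 26 to 28 of the list higher. The list names 45 genes, and 7 were under the filter, among them Epo, the hormone of red cell formation, at 0.00958 to 0.10 FPKM in Con and 0.0342 to 0.515 FPKM in Mod.

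The parts of the oxygen-sensing system itself divided. The transcripts of the main alpha subunits did not pass the test. Hif1a stood at 14.1 ± 1.32 FPKM in Con and 13.2 ± 1.2 FPKM in Mod (log2 change -0.09, adjusted p = 0.482), and Epas1, which encodes HIF-2 alpha, at 13.2 ± 1.01 and 13.1 ± 1.24 FPKM (log2 change -0.01, adjusted p = 0.940). Hif3a, whose products include inhibitors of the other alpha subunits, read 0.356, 0.540, 0.542 and 0.693 FPKM in Con and 5.04, 3.20, 4.88, 4.38 and 3.42 FPKM in Mod (log2 change 1.75, SE 0.16, adjusted p = 1.99e-05). Its groups were far apart, with every Mod library above 3 FPKM. Egln1, the hydroxylase that marks HIF alpha for destruction, rose from 16.2 ± 0.620 to 26.2 ± 0.902 FPKM, and Cited2, which competes with HIF for a coactivator, rose by 0.44. Cul2, a scaffold of the ubiquitin ligase that acts on HIF alpha, fell by 0.29. Of all 15 sensors and subunits, 5 rose and 1 fell. Only 3 rose without Con replicate 1, Con replicate 3 or Mod replicate 2, 2 fell without Con replicate 4, and with equal FPKM sums 2 rose and the median of 0.06 turned to -0.01. Of 19 demethylases that need oxygen 6 rose (31.58%) and 2 fell (10.53%), against 14.0% and 9.81% of all genes. Only 1 of them fell in every fit without 1 library other than that without Con replicate 4. With equal FPKM sums 3 rose, and after removal of the length and GC trend 9 rose and 1 fell. Kdm3a, which acts on histone H3, rose from 5.51 ± 0.567 to 9.68 ± 0.888 FPKM, and Tet2, which oxidises methylated cytosine, from 2.16 ± 0.121 to 3.73 ± 0.376 FPKM.

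The windows upstream of 5 of these genes are shown because HIF binds a short core in many of its targets. They hold the 250 bases before the most upstream annotated start, 5′ to 3′ on the strand of the gene, from RefSeq on GRCm38.p6. Capitals mark the cores ACGTG and GCGTG on either strand, where the reverse complements read CACGT and CACGC. In CACGTG both strands match, and this counts as 2 matches.
Bnip3, chr7:138909507-138909756, minus strand: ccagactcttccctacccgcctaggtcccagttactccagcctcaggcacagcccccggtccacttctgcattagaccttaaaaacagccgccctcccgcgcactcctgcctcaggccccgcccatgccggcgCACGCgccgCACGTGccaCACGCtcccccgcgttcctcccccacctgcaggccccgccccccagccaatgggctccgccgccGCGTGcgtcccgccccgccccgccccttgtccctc
Ankrd37, chr8:45999851-46000100, minus strand: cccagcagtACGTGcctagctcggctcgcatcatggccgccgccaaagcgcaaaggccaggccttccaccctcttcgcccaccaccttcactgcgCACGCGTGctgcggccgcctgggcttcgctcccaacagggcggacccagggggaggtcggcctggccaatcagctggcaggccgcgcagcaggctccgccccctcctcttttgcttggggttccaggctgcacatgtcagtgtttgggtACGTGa
Ldha, chr7:46845554-46845803, plus strand: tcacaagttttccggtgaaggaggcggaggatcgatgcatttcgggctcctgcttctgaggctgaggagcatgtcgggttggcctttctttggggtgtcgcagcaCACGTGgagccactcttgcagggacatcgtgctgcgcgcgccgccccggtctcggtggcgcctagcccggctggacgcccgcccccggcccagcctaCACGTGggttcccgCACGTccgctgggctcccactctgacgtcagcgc
Slc16a3, chr11:120948817-120949066, plus strand: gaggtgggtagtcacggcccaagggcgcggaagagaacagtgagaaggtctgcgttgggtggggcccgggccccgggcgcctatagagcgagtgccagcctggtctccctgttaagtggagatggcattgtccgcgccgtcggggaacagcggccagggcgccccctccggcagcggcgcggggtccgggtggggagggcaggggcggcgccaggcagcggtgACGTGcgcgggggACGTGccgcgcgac
Vegfa, chr17:46032378-46032627, minus strand: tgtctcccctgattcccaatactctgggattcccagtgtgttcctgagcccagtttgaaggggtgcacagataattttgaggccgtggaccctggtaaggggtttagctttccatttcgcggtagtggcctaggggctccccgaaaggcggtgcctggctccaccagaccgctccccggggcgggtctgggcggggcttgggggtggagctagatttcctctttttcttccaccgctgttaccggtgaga
Bnip3 and Ldha hold 5 matches each, Ankrd37 4, Slc16a3 2 and Vegfa 0. Vegfa had the largest log2 change of the 5, on a scale that shows less than the fold for low genes such as Slc16a3. Of the 9773 tested genes whose symbol matched a promoter, 22.3% held ACGTG, 45.9% held GCGTG and 57.4% held either. Of 31 HIF targets with a window, 14 (45.2%) held ACGTG, 17 (54.8%) held GCGTG and 23 (74.2%) held either. Of the 24 called targets among them, 11 (45.8%) held ACGTG and 17 (70.8%) held either, so called targets did not hold a core more often than the list. Among genes called higher 24.4% held ACGTG and among genes called lower 20.4%. Of the 53 genes with a window that rose by at least 1, 11 (20.8%) did. Windows of HIF targets had a median GC content of 64.8%, against 60.4% over all windows, and the part of this in the shares was not tested. A match describes the letters in the window and shows no binding.

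**Figure D2:**
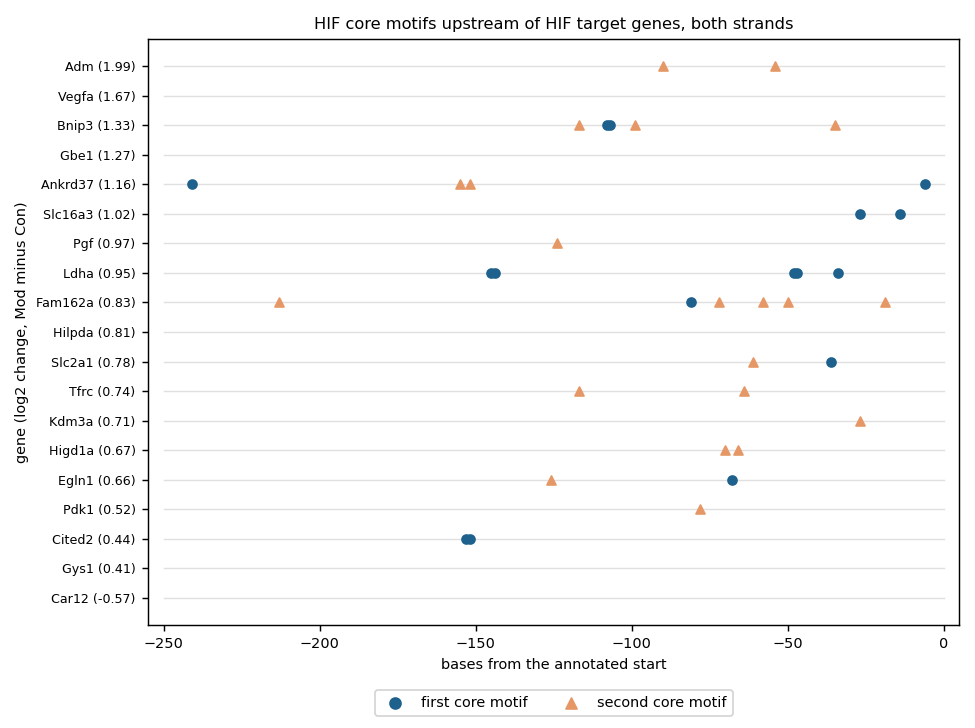
Position of HIF core matches in the 250 bases upstream of the annotated start (horizontal axis, in bases) for the 19 HIF targets named in the text that have a window, ordered by log2 change; circles mark ACGTG and triangles GCGTG, on either strand. Matches were found for 14 of the 19 genes, and Vegfa, Gbe1 and Hilpda, all higher in Mod, have none in this window.

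Genes that carry glucose to lactate rose at most steps. In the list of glucose transport and upper glycolysis 8 of 15 rose and 0 fell (median 0.25), and in that of lower glycolysis and lactate 9 of 19 rose and 0 fell (median 0.28). Slc2a1, the glucose transporter of the barrier and of astrocytes, read 18.3, 20.7, 18.6 and 21.6 FPKM in Con and 40.2, 34.7, 34.4, 32.0 and 32.1 FPKM in Mod (log2 change 0.78, SE 0.10, adjusted p = 0.000198). Hk2, the hexokinase that low oxygen induces in many tissues, rose from 0.457 ± 0.0744 to 1.66 ± 0.241 FPKM, and Ldha, which turns pyruvate into lactate, from 68.4 ± 10.8 to 132 ± 7.43 FPKM. No Con library reached any Mod library for these 3 genes. Among abundant enzymes Aldoa rose by 0.47, Pgam1 by 0.45 and Pkm by 0.44. Changes of the 4 members with the largest mean FPKM ran from 0.16 to 0.77 in the first list. In the second list they ran from -0.01 to 0.45. Pdk1, a kinase that keeps pyruvate out of mitochondria, rose by 0.52. Leaving out Con replicate 3 or Mod replicate 1 gave 1 lower member of the second list, and leaving out Mod replicate 5 gave 2. Each of the 5 other scalings also gave lower members of that list, 2 with equal FPKM sums and 1 with each of the others. Glycolytic genes such as Gapdh have many processed copies, and the treatment of reads shared with them is not given in the sources used here. Gapdh was listed at only 7.89 ± 0.994 FPKM in Con.

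Of 20 glycogen genes 7 rose and 4 fell, and both directions were found within synthesis and within breakdown. Gbe1, the branching enzyme of glycogen synthesis, read 1.97, 1.96, 2.40 and 2.24 FPKM in Con and 7.07, 6.42, 7.55, 6.08 and 5.75 FPKM in Mod (log2 change 1.27, SE 0.08, adjusted p = 7.43e-07). Phka2, a regulatory subunit of phosphorylase kinase, which starts glycogen breakdown, rose from 4.49 ± 0.390 to 8.20 ± 0.969 FPKM, and its catalytic subunit Phkg2 by 0.31, while its subunit Phkb fell by 0.36. Gys1, the glycogen synthase of muscle and brain, rose from 3.55 ± 0.490 to 5.06 ± 0.584 FPKM. Ugp2, which makes the sugar donor UDP-glucose, fell from 26.7 ± 0.894 to 16.7 ± 1.4 FPKM, and Gyg, the primer of glycogen synthesis, from 10.4 ± 1.13 to 7.14 ± 0.841 FPKM. The groups did not overlap for any of these 7 genes. Slc37a4, the transporter of glucose 6-phosphate into the endoplasmic reticulum, stood at 5.65, 5.49, 4.84 and 5.03 FPKM in Con and 19.6, 18.9, 15.7, 16.6 and 17.7 FPKM in Mod, a change of 1.58 (adjusted p = 1.47e-06 by limma).

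Respiratory chain genes moved little. Of the 37 nuclear genes of complex I, 3 rose (8.11%) and 0 fell (median 0.04), and of the 41 of complexes II to V, 1 rose (2.44%) and 3 fell (7.32%). Over all genes 14.0% rose and 9.81% fell. The 13 protein genes of the mitochondrial genome gave 0 calls, with all 13 changes above 0 and a median of 0.21 on the deposited scale. With quantile normalization the median was 0.00, and 2 rose and 1 fell. Without Con replicate 4, 5 of complex I, 2 of complexes II to V and 5 of the mitochondrial genome rose, and without Con replicate 1 only 1 of complexes II to V fell. With equal FPKM sums 1 of complex I rose and its median turned to -0.03. After removal of the length and GC trend 7 of complexes II to V fell. The 1 that rose in complexes II to V was Cox4i2, the cytochrome oxidase subunit known as a low-oxygen form, at 1.2, 1.13, 1.82 and 1.62 FPKM in Con and 2.83, 2.89, 3.57, 2.84 and 3.11 FPKM in Mod (log2 change 0.73, SE 0.13, adjusted p = 0.00203). Cycs, cytochrome c, fell by 0.33.

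Genes of vessels held the 2 largest rises of the comparison. Ctla2a, whose product inhibits cysteine proteases, lies on chromosome 13 at 60934155 to 60936625, minus strand, on GRCm38. It read 1.96, 2.2, 1.38 and 1.55 FPKM in Con and 27.7, 33.2, 28.7, 31.4 and 33.6 FPKM in Mod (log2 change 3.53, SE 0.15, adjusted p = 3.71e-08). It has a close copy, Ctla2b, and how reads of both were assigned is not given in the sources used here. Angpt2, the antagonist of the endothelial receptor Tek, read 0.233, 0.538, 0.574 and 0.571 FPKM in Con and 9.02, 11.1, 12.9, 8.92 and 8.67 FPKM in Mod (log2 change 2.90, SE 0.23, adjusted p = 5.88e-06). Apln, a peptide of sprouting endothelium, read 5.99, 7.17, 6.28 and 5.58 FPKM in Con and 27.6, 33.6, 36.0, 24.4 and 26.4 FPKM in Mod (log2 change 2.07, SE 0.18, adjusted p = 9.96e-06). All 3 were low in each Con library and high in each Mod library. Tek itself, the receptor that stabilises vessels, went the other way, with 3.29, 3.13, 2.46 and 3.39 FPKM in Con and 1.4, 1.13, 0.960, 1.02 and 1.10 FPKM in Mod (log2 change -0.94, SE 0.11, adjusted p = 9.61e-05), and Ptprb, the phosphatase that acts on Tek, fell from 2.51 ± 0.370 to 1.46 ± 0.305 FPKM.

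Among VEGF ligands and receptors 4 of 7 rose and 0 fell. Besides Vegfa, its relative Pgf rose from 0.902 ± 0.437 to 2.72 ± 0.768 FPKM, and the receptors Flt1 and Kdr rose by 0.68 and 0.54. Of 30 tip cell and Notch genes 12 rose and 2 fell, with a median of 0.20. Dll4, the Notch ligand of tip cells, read 0.749, 0.994, 0.723 and 0.847 FPKM in Con and 2.96, 2.95, 2.67, 2.70 and 2.69 FPKM in Mod (log2 change 1.05, SE 0.09, adjusted p = 1.1e-05). Plaur, the urokinase receptor at the front of invading cells, read 0.265, 0.235, 0.203 and 0.148 FPKM in Con and 3.16, 2.81, 3.28, 2.84 and 3.48 FPKM in Mod (log2 change 1.76, SE 0.08, adjusted p = 3.71e-08). Both genes were 3 or more times higher in every Mod library than in the mean of Con. Adm, which encodes the vessel-widening peptide adrenomedullin, rose from 1.05 ± 0.259 to 7.27 ± 1.86 FPKM (log2 change 1.99). Cxcl12, a chemokine of resting endothelium, read 8.46, 10.8, 8.17 and 7.25 FPKM in Con and 3.01, 2.66, 2.59, 2.40 and 2.76 FPKM in Mod (log2 change -1.38, SE 0.11, adjusted p = 4.6e-06). The second call of this list that was lower ended without Con replicate 2, Mod replicate 4 or Mod replicate 5, which left 1. Aplnr, the receptor of apelin, was under the filter, with 0.0716 to 0.635 FPKM over the 9 libraries.

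**Figure D3:**
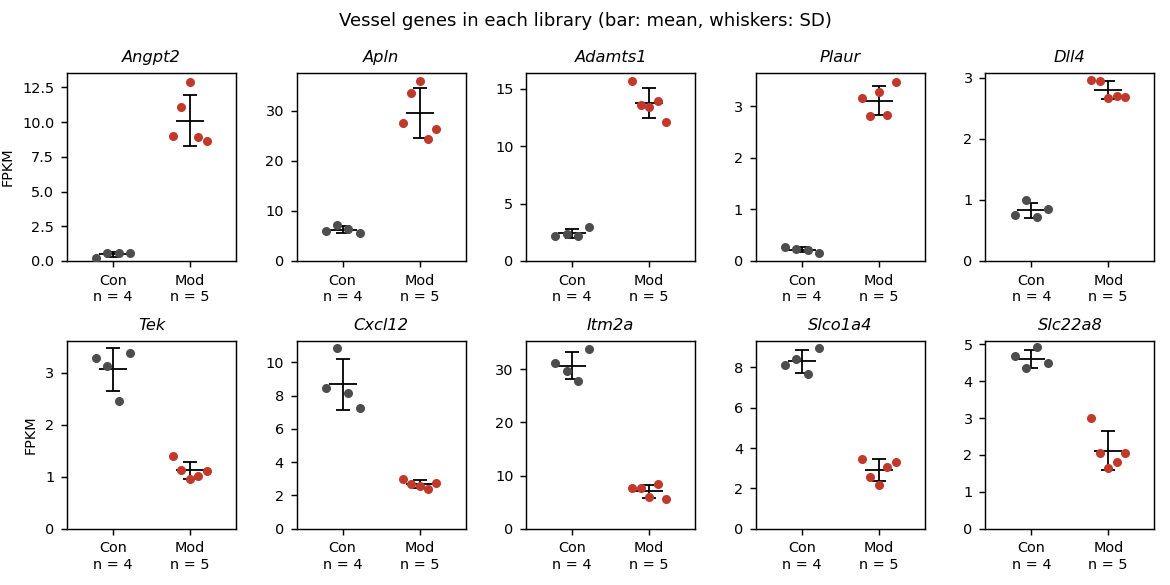
FPKM of 10 vessel genes in each Con library (grey, n = 4) and Mod library (red, n = 5), on linear axes from 0; horizontal bars are means and whiskers are SD. Angpt2, Apln, Adamts1, Plaur and Dll4 were higher and Tek, Cxcl12, Itm2a, Slco1a4 and Slc22a8 lower in every Mod library than in every Con library.

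Markers of endothelium changed in both directions, 12 of 24 higher and 7 lower. Pecam1, the junction protein that defines endothelium, rose from 2.98 ± 0.436 to 6.12 ± 0.348 FPKM, and Cdh5, the cadherin of its junctions, from 2.80 ± 0.361 to 5.65 ± 0.599 FPKM. Esam, an adhesion molecule, rose by 1.03, and Cldn5, the main claudin of the barrier, by 0.71. Itm2a, a membrane protein abundant in brain endothelium, read 31.1, 29.7, 27.9 and 33.9 FPKM in Con and 7.68, 7.74, 6.00, 8.40 and 5.54 FPKM in Mod (log2 change -1.98, SE 0.12, adjusted p = 6.68e-07). Its level fell while Pecam1, Cdh5, Esam and Cldn5 rose. Tek, Ptprb, Slco1a4, Pltp and Abcb1a, also on this list, fell as well, so the list did not move as 1 block. Adamts1, a protease that cleaves matrix proteoglycans, rose from 2.41 ± 0.386 to 13.8 ± 1.28 FPKM, Apold1, an endothelial early response gene, from 1.78 ± 0.596 to 9.92 ± 0.540 FPKM, and Cd93, an endothelial receptor of matrix, from 1.36 ± 0.137 to 7.24 ± 0.336 FPKM. Adgrl4 and the transcription factor gene Bcl6b rose by 1.55 and 1.68. The median of the marker list was 0.29, and its 24 genes summed to 277 to 332 FPKM in Con and 329 to 372 FPKM in Mod. The part of endothelial cell number in the vessel genes was not tested.

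Transporters and junctions of the barrier leaned down, 8 of 32 lower and 4 higher (median -0.12). These are shares of 25.0% and 12.5%, against 9.81% and 14.0% of all genes. The list's mean level differed from the Con mean by 0.01 in Mod replicate 1 and by -0.24 to -0.12 in the other Mod libraries. Slco1a4, which carries organic anions, read 8.12, 8.44, 7.66 and 8.97 FPKM in Con and 3.48, 2.55, 2.15, 3.04 and 3.31 FPKM in Mod (log2 change -1.26, SE 0.11, adjusted p = 1.34e-05). Slc22a8, which exports organic anions, fell from 4.61 ± 0.247 to 2.11 ± 0.521 FPKM, Slco1c1, the carrier of thyroid hormone, from 11.4 ± 2.04 to 5.70 ± 1.03 FPKM, and Abcb1a, the P-glycoprotein drug pump, from 4.94 ± 0.412 to 3.30 ± 0.512 FPKM. For these 4 genes every Mod library lay below every Con library. Mfsd2a, the carrier of lysolipids that restrains transcytosis, rose from 7.24 ± 0.595 to 14.0 ± 2.73 FPKM. Cldn5 and Slc2a1 are on the same list and rose, so its members moved in both directions. Whether the barrier itself opened was not measured.

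Basement membrane genes rose in 7 of 12 cases and fell in 0, with a median of 0.42. Col4a1, a chain of the collagen that forms this sheet, read 7.70, 8.49, 6.78 and 7.77 FPKM in Con and 21.3, 22.1, 20.4, 15.8 and 19.0 FPKM in Mod (log2 change 1.25, SE 0.10, adjusted p = 6.07e-06), and its partner Col4a2 rose by 0.81. Fn1, fibronectin, rose from 3.93 ± 0.576 to 7.00 ± 1.01 FPKM and the nidogen gene Nid2 from 0.852 ± 0.209 to 2.06 ± 0.391 FPKM. Of 14 mural cell genes 6 rose (42.86%) and 3 fell (21.43%), against 14.0% and 9.81% of all genes. Abcc9 and Kcnj8, the 2 parts of the potassium channel of pericytes, rose by 0.65 and 0.64, and Tagln, an actin-binding protein of smooth muscle, fell by 0.61. Without Con replicate 4, Mod replicate 2 or Mod replicate 4 only 1 mural gene fell, and the list's median of 0.03 turned to -0.03 with equal FPKM sums.

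Genes of the glucocorticoid response rose in 20 of 34 cases and fell in 2, with a median of 0.45. Fkbp5, a chaperone that dampens the receptor and is a standard readout of the hormone, read 2.82, 2.69, 2.86 and 2.69 FPKM in Con and 8.40, 6.90, 7.49, 9.06 and 6.47 FPKM in Mod (log2 change 1.19, SE 0.11, adjusted p = 1.99e-05). Plin4, a coat protein of lipid droplets, read 0.432, 0.407, 0.256 and 0.705 FPKM in Con and 10.9, 7.76, 11.2, 6.30 and 9.51 FPKM in Mod (log2 change 2.79, SE 0.26, adjusted p = 1.57e-05). Sult1a1, a sulfotransferase, rose from 4.01 ± 0.552 to 11.7 ± 1.08 FPKM, and Klf15, a transcription factor of metabolism, from 4.24 ± 0.626 to 7.51 ± 0.624 FPKM. Mod values of these 4 genes were all above the Con values. Nr3c1, the receptor itself, stood at 13.0 ± 1.66 FPKM in Con and 9.54 ± 0.615 FPKM in Mod, and its lower call (log2 change -0.40) ended without Con replicate 3 (adjusted p = 0.0535). That fit left 1 lower member, and 15 to 21 members rose in the fits without 1 library. Hif3a and Angptl4 are on this list and are known to answer to both signals.

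The metallothioneins, which bind zinc and copper, differed by gene. Mt1 read 69.1, 79.9, 71.2 and 91.6 FPKM in Con and 205, 173, 188, 162 and 203 FPKM in Mod (log2 change 1.25, SE 0.14, adjusted p = 6.01e-05), and Mt2 rose from 89.0 ± 13.4 to 239.8 ± 42.1 FPKM. Mt3, the form of neurons and astrocytes, was at 90.3 ± 6.37 FPKM in Con and 83.3 ± 6.93 FPKM in Mod and was not called (log2 change -0.12, adjusted p = 0.385). Thus Mt1 and Mt2 were above 2 times the Con mean in every Mod library, and the groups overlapped for Mt3. The zinc importer gene Slc39a10 fell from 31.0 ± 6.43 to 17.4 ± 1.19 FPKM.

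RNA-binding proteins that cooling induces were higher. Rbm3 read 15.4, 15.7, 13.1 and 14.8 FPKM in Con and 35.5, 35.5, 38.1, 37.1 and 40.3 FPKM in Mod (log2 change 1.28, SE 0.06, adjusted p = 3.82e-08), and Cirbp 17.5, 18.6, 14.8 and 22.7 FPKM in Con and 38.6, 33.6, 34.2, 38.2 and 36.3 FPKM in Mod (log2 change 0.95, SE 0.12, adjusted p = 0.000224). Neither gene's groups overlapped. Clk1, a kinase of splicing factors whose activity depends on temperature, rose by 0.46. Of the 15 genes on this list 7 rose and 1 fell. Without Con replicate 3, 4 rose and 0 fell, without Con replicate 2, 2 fell, and 2 fell with median-of-ratios scaling, with equal sums without mitochondrial genes and after removal of the length and GC trend. Body temperature is not given in the labels.

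Heat shock proteins moved the opposite way, with 12 of 33 lower and 3 higher (median -0.17). Hspa4, which helps HSP70 exchange nucleotide, read 41.7, 39.1, 41.3 and 40.8 FPKM in Con and 25.8, 26.2, 27.7, 25.8 and 25.6 FPKM in Mod (log2 change -0.62, SE 0.06, adjusted p = 1.46e-05). Hsph1, a large relative of it, fell from 38.3 ± 4.33 to 20.5 ± 2.02 FPKM, the small heat shock protein gene Cryab from 54.0 ± 4.54 to 27.1 ± 3.92 FPKM, and the constitutive HSP70 gene Hspa8 from 227 ± 12.4 to 170.4 ± 15.7 FPKM. Hsf1, the transcription factor of the heat shock response, fell by 0.32. The groups did not overlap for any of these 5 genes. Hspa2 rose by 0.43. Only 1 member rose without Con replicate 3 or 4 or Mod replicate 1, 3 or 5, and with equal FPKM sums. Between 9 and 13 fell in the fits without 1 library.

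In the unfolded protein and integrated stress response 14 of 36 genes fell and 7 rose. Calr, a chaperone of the endoplasmic reticulum, read 115, 108, 118 and 101 FPKM in Con and 67.1, 70.2, 79.1, 71.7 and 73.0 FPKM in Mod (log2 change -0.61, SE 0.06, adjusted p = 3.05e-05), with no overlap. Hyou1 and Pdia6, which fold proteins there, fell by 0.35 and 0.39, and Phgdh, the first enzyme of serine synthesis, by 0.74. Ppp1r15a, the phosphatase subunit that restarts translation, rose from 3.11 ± 0.411 to 5.18 ± 0.288 FPKM, and Herpud1, of the degradation of misfolded proteins, by 0.37. Chaperones and the genes that rose are thus on 1 list but moved in opposite directions. The lower count was 9 without Con replicate 1. The higher count was 3 without Con replicate 1, 4 without Con replicate 2, Mod replicate 4 or Mod replicate 5, 2 without Con replicate 3, and 2 with equal FPKM sums.

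**Figure D4:**
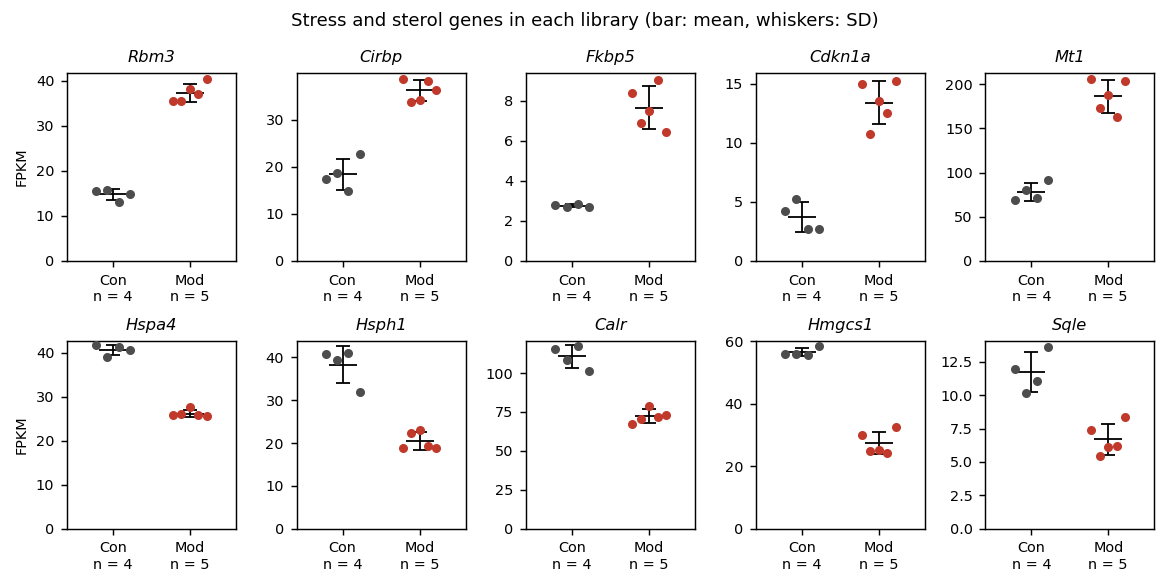
FPKM of 10 stress and sterol genes in each Con library (grey, n = 4) and Mod library (red, n = 5), on linear axes from 0; horizontal bars are means and whiskers are SD. Rbm3, Cirbp, Fkbp5, Cdkn1a and Mt1 were higher and Hspa4, Hsph1, Calr, Hmgcs1 and Sqle lower in every Mod library than in every Con library.

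Targets of p53 and caspase genes rose in 11 of 24 cases and fell in 1 (median 0.23). Cdkn1a, the p21 inhibitor of the cell cycle, which glucocorticoids also raise, read 4.22, 5.28, 2.71 and 2.68 FPKM in Con and 15.0, 10.7, 13.5, 12.5 and 15.2 FPKM in Mod (log2 change 1.64, SE 0.27, adjusted p = 0.00106). Its lowest Mod value was above 2 times the highest Con value. Pmaip1, which promotes apoptosis, rose from 0.486 ± 0.0808 to 1.19 ± 0.200 FPKM, Sesn1, a stress-response inhibitor of mTOR, from 12.2 ± 0.921 to 16.9 ± 1.41 FPKM, and Trp53 itself by 0.35. Zmat3, an RNA-binding target of p53, fell by 0.40. Without Con replicate 4, 3 members fell, without Mod replicate 5, 2 fell, and 3 fell under each of the 5 other scalings, with 7 higher at equal FPKM sums.

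Cholesterol synthesis and uptake fell in 18 of 27 cases and rose in 1, with a median of -0.48. Srebf2, which drives the pathway, read 25.0, 27.9, 23.7 and 24.6 FPKM in Con and 14.7, 14.0, 15.1, 13.7 and 13.7 FPKM in Mod (log2 change -0.79, SE 0.06, adjusted p = 2.26e-06). Sqle, which adds oxygen to squalene, read 12.0, 10.2, 11.0 and 13.7 FPKM in Con and 7.37, 5.44, 6.13, 6.19 and 8.36 FPKM in Mod (log2 change -0.73, SE 0.12, adjusted p = 0.00124). Both fell with no overlap between the groups. Hmgcs1, an early enzyme, fell from 56.4 ± 1.28 to 27.4 ± 3.62 FPKM, and Idi1, which makes isoprenoid units, from 13.6 ± 1.5 to 6.74 ± 1.04 FPKM. Tm7sf2, a sterol reductase, rose by 0.39. Leaving out 1 library left 17 or 18 lower. Mature oligodendrocytes make much of the brain's sterol, and the levels of their markers are given with the myelin genes.

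Genes that move or store lipid went both ways. Abca1, the exporter of cholesterol to lipoproteins, rose from 3.95 ± 0.306 to 6.20 ± 0.538 FPKM, and Lcat, which esterifies cholesterol, from 10.2 ± 0.445 to 19.5 ± 4.34 FPKM. Pnpla2, the lipase of lipid droplets, rose from 4.67 ± 0.757 to 11.2 ± 1.41 FPKM, and Hilpda, which inhibits that lipase, from 2.50 ± 0.120 to 5.15 ± 0.678 FPKM. These 4 genes were higher in each Mod library than in each Con library. Fabp7, the fatty acid carrier of astrocytes and precursor cells, read 24.9, 24.7, 27.3 and 26.8 FPKM in Con and 10.2, 9.14, 10.2, 7.04 and 12.7 FPKM in Mod (log2 change -1.33, SE 0.13, adjusted p = 1.99e-05). Pltp, a phospholipid transfer protein, fell from 16.4 ± 2.28 to 6.83 ± 1.18 FPKM.

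In the lists of potassium and sodium channels, glutamate receptors and GABA genes all called genes were lower. Of 20 sodium pump and chloride cotransporter genes 4 fell but 1 rose. Of 33 genes of presynaptic release 3 fell (9.09%) and 0 rose. Without Con replicate 4, 2 pump and cotransporter genes rose and 5 release genes fell. With equal FPKM sums 5 fell in each of these lists and 0 rose. Over all genes tested 9.81% fell and 14.0% rose. Of 26 potassium and sodium channel genes 9 fell and 0 rose (median -0.24). Kcna6, a voltage-gated potassium channel, read 17.0, 15.5, 15.8 and 18.1 FPKM in Con and 9.56, 8.41, 9.00, 8.14 and 10.4 FPKM in Mod (log2 change -0.80, SE 0.10, adjusted p = 0.000178), and Scn2b, a sodium channel subunit, fell from 51.2 ± 4.10 to 34.9 ± 2.1 FPKM. Of 29 glutamate receptor and scaffold genes 7 fell and 0 rose (median -0.22). Grm3, a metabotropic receptor of neurons and astrocytes, fell from 12.2 ± 1.63 to 5.45 ± 0.599 FPKM with no overlap. The channel count was 4 without Con replicate 3, Mod replicate 2 or Mod replicate 4, and 5 without Mod replicate 3 or 5. The receptor count was 4 without Con replicate 3 or Mod replicate 2, 3 or 4. The mean level of the receptor list in Con replicate 4 differed from the Con mean by -0.20, within the Mod range of -0.33 to -0.12. Of 19 genes of GABA receptors and synthesis 3 fell and 0 rose, among them Gabrb1 (by 0.54) and Gabrb2 (by 0.48), which encode channel subunits. Rbfox3, which defines neurons as NeuN, was at 26.9 ± 5.99 FPKM in Con and 27.5 ± 3.55 FPKM in Mod and was not called (log2 change 0.05, adjusted p = 0.866). Of the 16 neuronal markers 2 fell, Tubb3 (-0.65) and Nefm (-0.66), 4 with median-of-ratios scaling, and 0 rose.

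Of 12 neurotrophin and receptor genes 6 fell and 0 rose. Vgf, a neuropeptide precursor that neurotrophins induce, read 49.2, 62.3, 49.7 and 42.5 FPKM in Con and 32.7, 28.5, 32.1, 36.1 and 27.7 FPKM in Mod (log2 change -0.67, SE 0.10, adjusted p = 0.000644). Bdnf, the growth factor of active synapses, read 2.83, 3.60, 3.03 and 1.86 FPKM in Con and 1.42, 1.34, 0.999, 0.784 and 1.95 FPKM in Mod (log2 change -0.74, SE 0.17, adjusted p = 0.00699). Vgf did not overlap between groups, while for Bdnf Con replicate 4 lay below Mod replicate 5. Immediate early genes, which neurons switch on when active, gave 3 higher and 4 lower of 25. Without Con replicate 4 the lower count was 10, without Con replicate 3 or Mod replicate 1 the higher count was 1, and it was 1 with equal FPKM sums. Arc read 52.2, 59.0, 36.6 and 12.1 FPKM in Con and 19.6, 10.7, 18.8, 7.22 and 12.4 FPKM in Mod (log2 change -1.35, adjusted p = 0.0583, and -1.82 with adjusted p = 0.00763 without Con replicate 4). Egr1 read 49.4, 48.7, 46.6 and 14.3 FPKM in Con and 29.7, 21.9, 27.5, 20.4 and 18.3 FPKM in Mod (adjusted p = 0.252, and 0.0156 without Con replicate 4). In both genes Con replicates 1 to 3 lay above all Mod libraries while Con replicate 4 lay within the Mod range for Arc and below it for Egr1. Jun, a subunit of the AP-1 transcription factor, rose by 0.43.

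The PI3K and AKT core, which carries signals of insulin and growth factors, gave 5 higher and 6 lower of 45 (median -0.07), shares of 11.11% and 13.33% against 14.0% and 9.81% of all genes. Tsc1, which restrains mTOR complex 1, read 7.28, 6.55, 7.32 and 7.5 FPKM in Con and 9.65, 9.48, 9.92, 10.6 and 9.87 FPKM in Mod (log2 change 0.42, SE 0.07, adjusted p = 0.000765). Insr, the insulin receptor, rose by 0.28, Inpp5d, a lipid phosphatase of microglia, by 0.36, and Sgk3 and Rictor, kinase components of the pathway, by 0.43 and 0.17. Akt2, the AKT form of the insulin response, fell from 11.0 ± 3.17 to 6.36 ± 0.831 FPKM. Pdpk1, which activates AKT, fell by 0.32, Pik3r3, a regulatory subunit, by 0.31, the phosphatase gene Phlpp1 by 0.29, and Eif4ebp2, an inhibitor of translation, by 0.20. Thus both activating and restraining members are found in each direction. Only 3 rose without Con replicate 1 or 2 or Mod replicate 3, 4 or 5, and 10 fell with median-of-ratios scaling or with equal sums without mitochondrial genes. The call of Akt2 ended without Con replicate 1 (adjusted p = 0.0543) or Con replicate 2 (adjusted p = 0.0530). That of Sgk3 was kept only without Mod replicate 1 or 2, that of Rictor only without Con replicate 3 or 4, and that of Eif4ebp2 only without Con replicate 4 or Mod replicate 3.

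Of 24 myelin and mature oligodendrocyte genes 6 fell (25.0%) and 0 rose, against 9.81% and 14.0% of all genes, and 10 fell with equal FPKM sums. Ugt8a, which makes the galactolipid of myelin, read 29.3, 29.7, 33.6 and 38.4 FPKM in Con and 9.80, 10.4, 11.3, 7.75 and 13.7 FPKM in Mod (log2 change -1.55, SE 0.23, adjusted p = 0.000495). Every Mod library lay under the lowest Con value. Mbp, which encodes myelin basic protein, was at 416 ± 75.4 FPKM in Con and 466 ± 136 FPKM in Mod and was not called (adjusted p = 0.727), and its groups overlapped. The list summed to 1656 to 2289 FPKM in Con and 1125 to 2505 FPKM in Mod, and the part of this in the sterol genes was not tested. Its mean level was lowest in Mod replicate 4, 0.87 below the Con mean on the log2 scale, and highest in Con replicate 4, 0.36 above it. Of 16 precursor genes 4 fell and 0 rose, and Olig2, the transcription factor of the lineage, fell from 13.0 ± 1.67 to 7.06 ± 1.22 FPKM.

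Astrocyte genes gave 4 higher and 5 lower of 23, shares of 17.39% and 21.74% against 14.0% and 9.81% of all genes. Vim, an intermediate filament, read 6.51, 5.84, 4.92 and 5.27 FPKM in Con and 13.2, 13.2, 15.4, 12.1 and 15.2 FPKM in Mod (log2 change 1.16, SE 0.12, adjusted p = 4.71e-05), and Gjb6, a connexin that glucocorticoids also raise, rose from 14.9 ± 3.05 to 28.7 ± 3.78 FPKM. Aqp4, the water channel of astrocyte endfeet, read 15.6, 13.5, 16.7 and 21.0 FPKM in Con and 9.41, 7.21, 8.12, 6.86 and 10.0 FPKM in Mod (log2 change -0.92, SE 0.17, adjusted p = 0.00194), and Kcnj10, their potassium channel, fell from 56.1 ± 10.5 to 35.3 ± 6.90 FPKM. Vim and Aqp4 had no overlap, in opposite directions. Gfap, the usual marker of reactive astrocytes, was at 32.1 ± 8.43 and 33.7 ± 4.65 FPKM and was not called (adjusted p = 0.805). Only 3 fell without Con replicate 2 or 4 or Mod replicate 2 or 4. Among 16 genes of resting microglia 5 fell, 3 without Con replicate 1, 2 or 3 or Mod replicate 1, and 1 rose. Tmem119, a defining marker, fell by 0.46, and Mertk, a receptor for the uptake of dead cells that astrocytes also make, rose from 4.27 ± 0.820 to 8.01 ± 0.946 FPKM. The complement gene C4b rose from 4.09 ± 1.4 to 10.0 ± 1.91 FPKM. Of 10 genes of the adhesion and NF-kB response 3 rose and 1 fell, and the lower call was kept only in the fit without Mod replicate 1.

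Transcripts of tissues other than brain parenchyma also differed between libraries. Alb, the albumin gene of liver, read 18.1, 14.3, 18.9 and 18.2 FPKM in Con and 0.138, 0.195, 14.4, 0 and 0 FPKM in Mod (log2 change -3.31, SE 0.65, adjusted p = 0.00304), and Fabp1, a fatty acid carrier of liver, 4.46, 3.27, 5.11 and 3.74 FPKM in Con and 0.10, 0, 2.49, 0.103 and 0 FPKM in Mod (log2 change -1.93, SE 0.31, adjusted p = 0.000822). The Mod group was split, with replicate 3 within the Con range for Alb and below it for Fabp1, and the other 4 near or at 0. Of the 12 liver transcripts tested 10 fell, 8 to 10 without 1 library, and 0 rose, 1 without Con replicate 4. Hypothalamic markers gave 4 higher of 12 and 0 lower, but 0 without Con replicate 2 or 4, 1 without Con replicate 1 or Mod replicate 1, 3 or 4, and 2 without Mod replicate 5, and 1 with equal FPKM sums. Avp, the vasopressin gene, read 0.733, 0.389, 11.8 and 0.237 FPKM in Con and 22.0, 3.38, 9.34, 21.5 and 7.36 FPKM in Mod, a range of over 6 times within each group, and its call (adjusted p = 0.0494) was kept only without Con replicate 3 or Mod replicate 2. Sostdc1 and Enpp2, both made by the choroid plexus, fell by 1.15 and 0.79. Ttr, its most abundant transcript, ranged from 275 to 686 FPKM in Con and from 43.5 to 247 FPKM in Mod. It was not called (adjusted p = 0.510 by limma), although every Mod library lay below every Con library. The part of tissue sampling in the lists above was not tested beyond leaving out libraries.

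Circadian genes rose in 8 of 21 cases (38.1%) and fell in 2 (9.52%), against 14.0% and 9.81% of all genes. Per3, a repressor of the clock, rose from 3.84 ± 0.246 to 6.29 ± 0.499 FPKM and Ciart, another, from 3.60 ± 0.878 to 7.17 ± 0.656 FPKM. For both genes the groups did not overlap. Only 1 circadian gene fell without Con replicate 1, 2 or 3 or Mod replicate 1, 2 or 5, and 1 fell and 5 rose with equal FPKM sums. The hour at which tissue was taken is not in the labels. Among insulin-like growth factor genes Igfbp7, a binding protein of vessels, rose from 10.5 ± 1.63 to 26.6 ± 5.22 FPKM, Igfbp3, a binding protein in serum, from 4.56 ± 0.659 to 10.8 ± 1.93 FPKM, and Igfbp2 fell from 12.4 ± 0.862 to 7.39 ± 0.885 FPKM.

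Other genes with large changes have less clear roles in brain. Pglyrp1, a protein that binds bacterial cell wall, rose from 1.73 ± 0.145 to 10.1 ± 1.04 FPKM, and Gipr, the receptor of a gut hormone, read 0.720, 0.671, 0.680 and 0.720 FPKM in Con and 4.14, 5.15, 6.14, 3.78 and 5.20 FPKM in Mod (log2 change 1.78, SE 0.11, adjusted p = 5.74e-07). Wnt10b, a secreted WNT ligand, rose from 0.238 ± 0.0750 to 3.69 ± 1.54 FPKM, Maff, a small MAF transcription factor, from 0.410 ± 0.168 to 3.40 ± 0.579 FPKM, and the tubulin gene Tubb6 from 1.00 ± 0.0805 to 5.23 ± 0.512 FPKM. Prelp, a matrix protein of the meninges, fell from 3.56 ± 0.377 to 1.19 ± 0.520 FPKM, and Mfge8, a bridge to dead cells, from 20.9 ± 4.73 to 9.81 ± 0.795 FPKM. None of these 7 genes overlapped between groups. Among the most abundant genes, Tuba1a, an alpha tubulin of neurons, fell from 432 ± 16.9 to 314 ± 7.10 FPKM, and Actg1, a cytoplasmic actin, from 257 ± 10.8 to 208 ± 10.4 FPKM. Both have near-identical copies that could share reads.

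**Figure D5:**
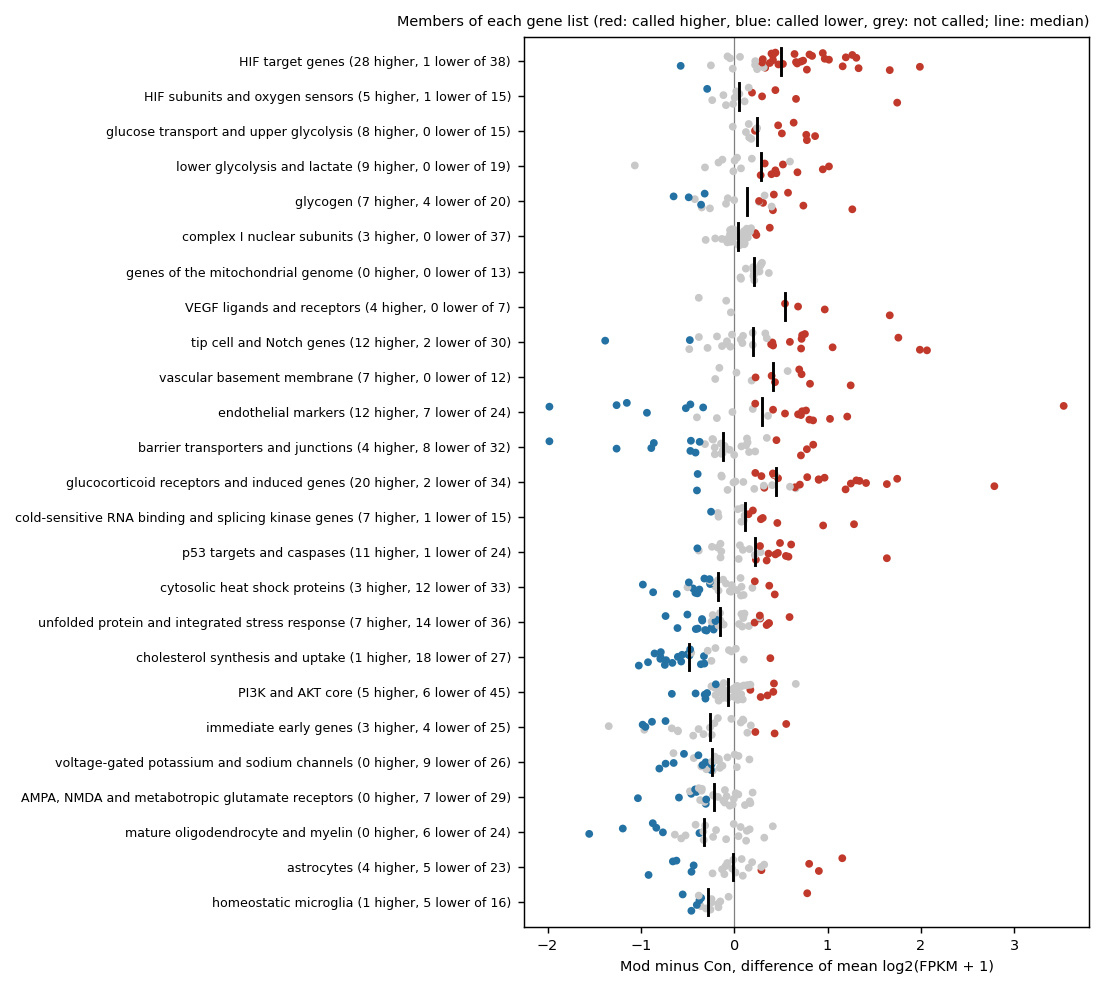
Log2 change from Con to Mod (horizontal axis) of each tested member of 25 gene lists, coloured by the limma call at an adjusted p under 0.05; black lines are list medians and labels give the counts. HIF targets (28 higher of 38) and cholesterol genes (18 lower of 27) lay mostly on opposite sides of 0, and endothelial markers spread to both sides (12 higher, 7 lower).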

How the data were processed

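Brain RNA of 9 libraries, 4 Con and 5 Mod, was compared, and groups follow the labels. The deposited table gives FPKM per gene, made by the authors from paired-end reads. The submitters' processing notes name HISAT2 2.2.1, StringTie 2.1.6, cutadapt 1.9 and FastQC, with edgeR, DESeq2 and featureCounts 1.5.0-p3, and the builds GRCm38 and mm10. Which tool made the FPKM, and the strand setting, are not given in the sources used here. FPKM carry no read totals, so the depth of each library is unknown and no counting interval is given.

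The test took genes that averaged 1 FPKM or more across all 13 columns. It was run on log2(FPKM + 1) with limma 3.58.1 in R 4.3.3, with a trended prior and 1 mean per group over all 13 columns. P-values were adjusted by Benjamini-Hochberg over the 13905 genes, with calls at 0.05. The script was tested on simulated data. Symbols matched 37499 of 37636 gene identifiers. Positions, exon lengths and GC content are from GENCODE M21 on GRCm38, with lengths for 13894 of the tested genes, and promoters are from RefSeq. Python 3.11.15, pandas 2.3.3 and matplotlib 3.10.9 made the summaries.

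The members and the 67 gene lists were chosen with earlier results of these data known, so lists are described by counts and medians of the members that passed the filter and carry no test of their own. Named genes are the 20 largest rises and 20 largest falls without overlap, the 10 most abundant calls in each direction, up to 8 called members of a list by p and up to 4 by level, all called PI3K and AKT members, and defining markers, and some genes that this rule takes are not reported here. Ankrd37, Ctla2b, Epas1, Epo, Gapdh, Gh, Gys1, Aplnr, Herpud1, Hif1a, Higd1a, Nr3c1, Prl and Tm7sf2 fall outside this rule and were chosen after their values were seen. The 24 alternatives changed scaling, pseudocount, filter, moderation, weights, samples, blocking and minimum change.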

Additional observations from a re-analysis of the deposited data

Results flagged for a closer look

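In 24 of 328 groups of values examined for the named genes, 1 library lay apart from the others of its group by Dixon's ratio at the 95% level. Chance gives about 1 in 20 groups. The values below are FPKM in the library that lay apart.

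Transcripts of liver set Mod replicate 3 apart, with Alb at 14.4 FPKM, where the other 4 Mod libraries lay between 0 and 0.195 FPKM, and Fabp1 at 2.49 FPKM, where they lay between 0 and 0.103 FPKM. Con replicate 4 was low for Egr1, at 14.3 FPKM against 46.6 to 49.4 FPKM in the other 3 Con libraries. It was high for the sterol genes Hmgcs1 (58.3) and Idi1 (15.9), and for Gjb6 (19.5), Pkm (236) and Tubb3 (159). Without this library the calls of these genes other than Egr1 did not change.

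Con replicate 3 was high for Avp, at 11.8 FPKM against 0.237 to 0.733 FPKM in the other Con libraries, and for Pmaip1 (0.607), Slc16a3 (0.627) and Tet2 (2.34), and low for Wnt10b (0.127). Con replicate 2 was high for the choroid plexus genes Ttr, at 686 FPKM against 275 to 330.1 FPKM, and Sostdc1, at 4.63 FPKM against 1.83 to 2.08 FPKM. The same library was high for Gapdh (9.37) and low for Cul2 (13.3), and Con replicate 1 was low for Angpt2 (0.233).

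In Mod, replicate 4 was low for Ttr (43.5) and high for Wnt10b (6.37). Mod replicate 5 was low for Ldha (119) and high for Gyg (8.59) and Nr3c1 (10.6). Mod replicate 1 was high for Igfbp3 (14.2).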

How the results depend on the processing

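Against 1940 genes higher and 1364 lower, leaving out 1 library gave 1421 to 1950 higher and 935 to 1518 lower. Equal FPKM sums gave 1095 higher, a mean of at least 5 FPKM 1129 higher, array weights 2123 lower, and a minimum log2 change of 0.5 left 63 higher and 8 lower. Deviations from the group means of same-numbered Con and Mod libraries had correlations of -0.180, 0.346, 0.0188 and -0.325. Libraries with different numbers gave -0.342 to 0.367. Such deviations cancel within a group, so these values cannot show whether the numbers pair samples, and the labels do not say. With the replicate number as a block 1250 genes were higher and 793 lower, and with the length and GC trend also removed 1205 were higher and 931 lower. Both block fits left out Mod replicate 5, which has no Con library of the same number, so they differ from the main fit in samples too. The cause of these moves was not tested, beyond the fewer genes tested at 5 FPKM and the stricter null at 0.5. Of 155 called genes named, 148 kept their call in every fit without 1 library and 0 changed direction in any alternative. Calls were lost by 12 of them with the block and by 12, in part other genes, with the length and GC trend also removed, by 8 without Con replicate 4 and Mod replicate 3 together, 5 with equal FPKM sums, 5 with no filter on the mean (Avp, Car12, Eif4ebp2, Rictor and Sgk3) and 3 with quantile normalization (Eif4ebp2, Rictor and Sgk3). Equal sums without mitochondrial genes and median-of-ratios scaling each ended 2 (Avp and Rictor), and removing the length and GC trend, fitting only the 9 libraries and robust moderation each ended 1 (Avp). The minimum change of 0.5 ended 112. The unknown depth limits genes with low FPKM.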

Other observations

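Further lists were outside the comparisons described. Of 12 genes of the cell cycle 3 were higher and 0 lower, with a median change of 0.10. Of 79 cytosolic ribosomal protein genes 8 were higher and 0 lower, 72 changes were above 0, and the median was 0.14. The higher count was 2 without Con replicate 3, 5 without Con replicate 1 or Mod replicate 3 or 5, and 2 with equal FPKM sums, and 1 member was lower without Mod replicate 3. Of 24 NRF2 and glutathione genes 7 were higher and 2 lower, with 11 higher without Con replicate 4 and 4 with equal FPKM sums. Of 10 interferon-stimulated genes 0 were higher and 1 lower, 2 without Con replicate 2 or Mod replicate 1 and 2 to 4 under the other scalings. Of 9 collagen hydroxylase genes 3 were higher and 0 lower.

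The pituitary hormone gene Prl was at 3.63 FPKM in Con replicate 4, at 0.254 FPKM in Mod replicate 5 and listed at 0 in the other 7 libraries. Of 876 pseudogenes tested, 77 were higher and 45 lower.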
